A study of Mus musculus with 18 samples.

Results

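Matrix metalloproteinases (MMPs) and their tissue inhibitors (TIMPs) were described in MC38 cells, a mouse colon adenocarcinoma line of C57BL6 origin, from RNA sequencing. The 10 genes Timp1, Timp2, Timp3, Mmp2, Mmp3, Mmp9, Mmp10, Mmp11, Mmp13 and Mmp14 were chosen by name, out of 39179 genes in the files, with the counts of all 18 libraries already known. Their values below are therefore a description: a member is said to pass where edgeR's adjusted p over all 15006 genes tested was under 0.05, and nothing is supported with that. All 10 passed the filter on low counts. The libraries fell into 6 groups of 3. They were APC-intact cells without doxycycline, with 24 h and with 48 h of 1 µM doxycycline, and APC-deleted cells, in which the tumour suppressor gene Apc was targeted, without doxycycline, with 24 h and with 48 h. The treated cells carried an inducible hairpin against Tdo2, which encodes tryptophan 2,3-dioxygenase, the enzyme of the entry step of kynurenine synthesis. The titles of the untreated libraries do not name the hairpin, although the protocol speaks of hairpin cells with and without the drug. Since every treated group had the hairpin, effects of the hairpin and of the drug cannot be told apart. Whether the APC-deleted line is 1 clone is not given in the sources used here. The labels speak of biological triplicates without saying that these were separate cultures, so errors and p-values measure the spread between these libraries, which may be technical.

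MMPs are zinc-dependent proteases that cut collagens, proteoglycans and other extracellular proteins. Most are secreted as inactive proenzymes, and plasmin, furin-like convertases or other MMPs remove the propeptide. TIMPs bind the active site of the mature enzymes, and TIMP2 also forms the complex with which membrane-bound MMP14 activates the proenzyme of MMP2. In colorectal tumours much MMP and TIMP expression comes from fibroblasts and leukocytes, and AP-1, the dimer of Fos and Jun proteins, is a classical activator of the promoters of collagenases and stromelysins.

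The promoters of Mmp3, Mmp10 and Mmp13 are shown because these 3 genes lie in 1 cluster on chromosome 9, because all 3 were lower after 48 h of doxycycline in both lines, and because they were the members with the AP-1 letters TGANTCA in the window searched. That of Timp1 is shown as 1 of the 2 members, with Timp2, that rose in APC-intact cells. Each line gives the 100 bases before the RefSeq start (GRCm38.p6, plus strand, 5′ to 3′), at chr9:7445722-7445821 for Mmp3, chr9:7502242-7502341 for Mmp10, chr9:7272414-7272513 for Mmp13 and chrX:20870066-20870165 for Timp1. Capitals mark the AP-1 letters.
Mmp3: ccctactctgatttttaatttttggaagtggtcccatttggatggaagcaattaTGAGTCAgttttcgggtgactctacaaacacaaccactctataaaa
Mmp10: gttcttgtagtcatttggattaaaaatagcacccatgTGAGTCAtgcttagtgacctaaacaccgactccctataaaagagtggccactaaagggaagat
Mmp13: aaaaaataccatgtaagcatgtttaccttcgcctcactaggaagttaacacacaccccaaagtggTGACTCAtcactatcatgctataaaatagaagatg
Timp1: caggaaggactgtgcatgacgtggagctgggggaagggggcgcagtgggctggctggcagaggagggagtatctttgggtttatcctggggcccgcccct

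The AP-1 letters TGANTCA, which read alike on both strands, occurred in 3 of the 8 member promoters that the RefSeq table holds, a window from 250 bases before to 50 after the start. The same letters occurred in 7.8% of 32851 promoters of that length. Counted from the start, the match lay at bases −46 to −40 in Mmp3, −63 to −57 in Mmp10 and −35 to −29 in Mmp13. The letters AGGAAG, a core bound by ETS factors of the PEA3 group, occurred on 1 or the other strand in 5 of the 8, Mmp13, Mmp3, Timp3, Mmp14 and Timp1, against 35.4% of all promoters. No AGGAAG match overlapped an AP-1 match. The letters CTTTGAT, a core bound by TCF and LEF factors, occurred in 0 of the 8 and in 3.7% of all promoters. These are matches of letters and do not show that a factor binds. Promoters of Mmp2 and Mmp9 are not shown.

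Per the files, which use mm10, Timp1 (ENSMUSG00000001131) lies on chromosome X from 20870166 to 20874735, Timp2 (ENSMUSG00000017466) on chromosome 11 from 118301069 to 118355740 and Timp3 (ENSMUSG00000020044) on chromosome 10 from 86300372 to 86349506. The gelatinase genes are Mmp2 (ENSMUSG00000031740) on chromosome 8 from 92827328 to 92853417 and Mmp9 (ENSMUSG00000017737) on chromosome 2 from 164940780 to 164955850. Mmp13 (ENSMUSG00000050578, from 7272514 to 7283333), Mmp3 (ENSMUSG00000043613, from 7445822 to 7455972) and Mmp10 (ENSMUSG00000047562, from 7502352 to 7510238) share chromosome 9. Mmp11 (ENSMUSG00000000901) lies on chromosome 10 from 75923222 to 75932502 and Mmp14 (ENSMUSG00000000957) on chromosome 14 from 54431604 to 54441258. Timp2 and Mmp11 are on the minus strand and the other 8 on the plus strand. Values are sums over the exons of a gene, so they do not part exons, introns or isoforms. Syn1 (137 to 338 counts per library) overlaps Timp1 on the opposite strand, Syn3 (5 to 17) overlaps Timp3 on the opposite strand and BC100451 (937 to 2403) overlaps Timp2 on the same strand. How strand was used in the counting is not given in the sources used here, so these 3 TIMP genes are to that extent uncertain.

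The libraries held 71970499 to 111948430 gene counts each. Tdo2 was counted only 6 to 29 times per library and no treated group passed against its untreated group (log2 fold change −0.30, 0.16, −0.59 and −0.61, edgeR adjusted p 0.774, 0.856, 0.573 and 0.494, for APC-intact at 24 and 48 h and APC-deleted at 24 and 48 h). For Apc the log2 difference of APC-deleted from APC-intact cells was −0.57 ± 0.123 (SE) untreated (edgeR adjusted p 0.00241) and −0.73 ± 0.124 after 48 h (edgeR adjusted p 0.000223). Counts per whole gene do not check the deletion itself. Of 8 colon epithelial markers Cdx2 was at 0, Epcam reached 1 count, Krt18 7, Krt20 12, Vil1 18 and Krt19 20, whereas Cdh1 had 45 to 176 counts and Krt8 65 to 363, beside 30 to 179 for the member Mmp3. Of 8 fibroblast markers Thy1 was near 0 (1 count or fewer) and Lum was low (8 to 112 counts). The scarcest of the others was Pdgfrb, with 5598 to 9671 counts per library, and Col1a1 had at least 44307. Of 8 haematopoietic markers Emr1 was at 0, Cd3e reached 1 count and Ptprc reached 4, whereas Cd68 had 800 to 2060. Of 6 endothelial markers Emcn reached 1 count, Kdr and Tek 3 and Tie1 4, whereas Pecam1 had 37 to 90 counts and Cdh5 167 to 521. A designation in the file names, read here as a run, put the untreated libraries of both lines and APC-intact at 24 h in 1 run and the other 3 groups in another. APC-deleted 48 h replicate 2 stood apart on principal component 3 (score −34.7) and APC-intact 24 h replicate 1 on component 4 (35.1). These are the 2 libraries said below to stand apart. APC-intact 24 h replicate 2, at −22.5 on component 3, was not counted with them. Yet in its group the pairs with replicate 2 differed most (chi-square per degree of freedom 50.1 and 77, against 29.1 for replicates 1 and 3).

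Levels differed widely among the members. Per kilobase of exon, untreated APC-intact cells had 183.8 ± 5.07 CPM (gene counts scaled to a common library size, SD, n = 3) of Mmp14, the membrane-type protease, and 183.5 ± 1.65 of Timp2, values that did not differ beyond their spread. Timp1 followed at 62.8 ± 1.70 CPM per kilobase, Mmp11 at 51.3 ± 1.98 and Mmp2 at 12.5 ± 0.732. The rest were lower: on this scale Mmp10 stood at 1.40 ± 0.207 and Mmp13 at 1.32 ± 0.107, which overlapped, Mmp9 at 0.630 ± 0.084 and Mmp3 at 0.601 ± 0.082, which also overlapped, and Timp3 at 0.188 ± 0.035. In untreated APC-deleted cells the order per kilobase was Mmp14 (203.8 ± 5.10 CPM), Timp2 (182.5 ± 5.94), Mmp11 (56.3 ± 2.18), Timp1 (45.0 ± 1.65), Mmp10 (5.17 ± 0.790), Mmp13 (2.78 ± 0.065), Mmp9 (1.31 ± 0.137), Mmp3 (0.937 ± 0.134), Timp3 (0.541 ± 0.060) and Mmp2 (0.232 ± 0.011). Mmp2, the fifth of the 10 in APC-intact cells, was thus the last in APC-deleted cells. Values below are in CPM of the whole gene, with replicates 1, 2 and 3 in that order. The lines at 24 h lie in different runs, so line and run cannot be told apart in their values at that time.

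**Figure D1:**
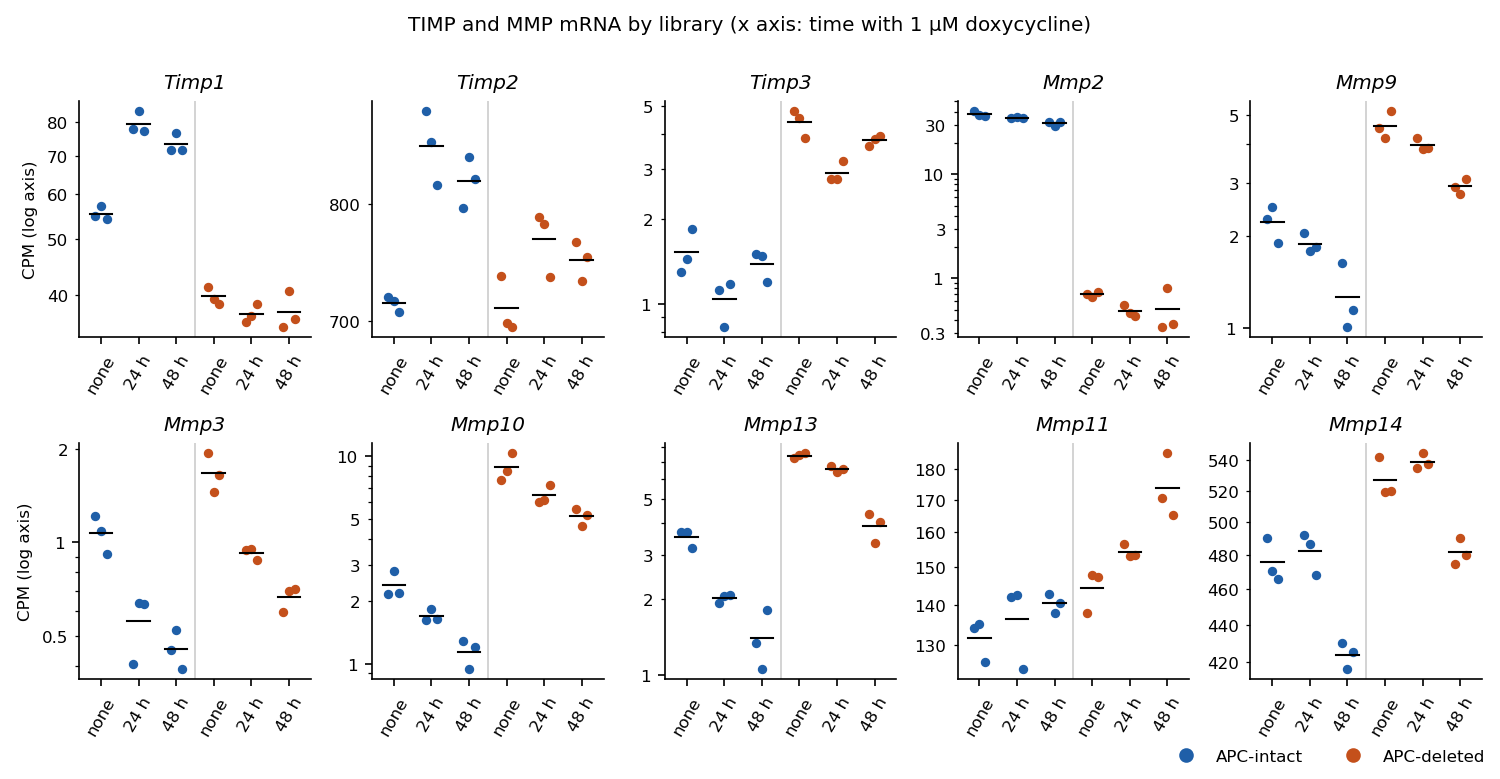
Level of each member (CPM, log axis) in each library, by line and by time with 1 µM doxycycline. Points are libraries and black lines are group means. Mmp2 lies between 29.1 and 40.2 CPM in APC-intact cells and between 0.344 and 0.803 CPM in APC-deleted cells, while Mmp3, Mmp9, Mmp10 and Mmp13 start higher in APC-deleted cells and are lower at 48 h in both lines.

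Timp1 encodes a secreted inhibitor of most soluble MMPs. In APC-intact cells it was measured at 54.9, 57.1 and 54.2 CPM without doxycycline, 78.1, 83.7 and 77.2 at 24 h and 71.5, 76.8 and 71.7 at 48 h. In APC-deleted cells the values were 41.3, 39.2 and 38.5 CPM without doxycycline, 35.9, 36.7 and 38.6 at 24 h and 35.2, 40.6 and 36.2 at 48 h. Every APC-intact library lay above every APC-deleted library, and the treated APC-intact libraries lay above the untreated ones, while the 3 groups of APC-deleted cells overlapped. On the log2 scale the APC-deleted line had less Timp1, by −0.48 ± 0.057 (SE) untreated and by −0.98 ± 0.057 at 48 h. With doxycycline it rose in APC-intact cells by 0.52 ± 0.057 at 24 h, within 1 run, and by 0.41 ± 0.057 at 48 h, across runs. In APC-deleted cells its log2 change was −0.10 ± 0.057 at 24 h and −0.09 ± 0.057 at 48 h, neither of which passed. Without replicate 2 of APC-deleted cells at 48 h the 48 h change was −0.16 and did pass. In bulk RNA, fewer cells of a type and less RNA per cell cannot be told apart.

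The 48 h changes of Timp1 in the 2 lines differed by −0.49 ± 0.080 on the log2 scale (95% interval −0.66 to −0.33), a contrast in which an additive effect of run cancels. Timp1 was 1 of 4 genes of 15006 that passed for this difference. The others were Mx2, an interferon-induced GTPase (0.83 ± 0.127), Cxcl1, a neutrophil chemokine (0.68 ± 0.113), and Bcl2l15, of the BCL2 family (0.59 ± 0.101), which differed in the opposite direction. The Timp1 difference stayed between −0.58 and −0.46 in every setting tried. It no longer passed in 11 of the 12 fits that left out 1 library, the exception being the one without replicate 2 of APC-deleted cells at 48 h, nor in the fit of only the groups compared (−0.48). The other 9 members had differences from −0.23 to 0.41 that did not pass. Those of Mmp13 (0.41 ± 0.192, 95% interval 0.01 to 0.81), Mmp10 (0.28 ± 0.197, −0.13 to 0.69) and Mmp3 (−0.09 ± 0.282, −0.68 to 0.50) were estimated too loosely to call the lines alike.

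Timp2 encodes the inhibitor that also takes part in MMP2 activation. APC-intact cells had 719, 716 and 707 CPM without doxycycline, 889, 858 and 817 at 24 h and 796, 844 and 823 at 48 h. APC-deleted cells had 737, 698 and 695 CPM, then 788, 782 and 736 at 24 h and 766, 732 and 752 at 48 h. Treated and untreated libraries were apart in APC-intact cells and overlapped in APC-deleted cells. Timp2 rose in APC-intact cells by 0.26 ± 0.046 at 24 h and 0.20 ± 0.046 at 48 h on the log2 scale, and its group means spanned 1.20-fold over all 6 groups. Its log2 changes in APC-deleted cells, 0.11 ± 0.046 and 0.08 ± 0.046, did not pass. The lines did not pass without doxycycline (−0.01 ± 0.046) and passed at 48 h (−0.13 ± 0.046). The latter call was lost without filter, with only the groups compared and in 4 of the 6 fits that left out 1 library.

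Timp3 encodes the TIMP that binds to the extracellular matrix and also inhibits several ADAM and ADAMTS proteases. Its level in APC-intact cells was 1.30, 1.44 and 1.85 CPM without doxycycline, 1.12, 0.835 and 1.18 at 24 h and 1.50, 1.48 and 1.20 at 48 h. In APC-deleted cells it was 4.80, 4.55 and 3.86 CPM, then 2.78, 2.76 and 3.20 at 24 h and 3.62, 3.82 and 3.93 at 48 h. Every APC-deleted library lay above every APC-intact library, and in both lines the 24 h libraries lay below the untreated ones. Timp3 was higher in APC-deleted cells by 1.52 ± 0.153 on the log2 scale without doxycycline and by 1.44 ± 0.155 at 48 h, opposite in direction to Timp1. The fall at 24 h in APC-deleted cells, −0.60 ± 0.147, crossed runs, and was lost without untreated replicate 1 (−0.53) or 2 (−0.58) or without 24 h replicate 1 (−0.57) or 2 (−0.56). At 24 h in APC-intact cells the log2 change was −0.55 ± 0.162, which passed with DESeq2 but not with edgeR. The 48 h changes, −0.14 ± 0.158 and −0.22 ± 0.146, did not pass.

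Mmp2 encodes gelatinase A, a protease of denatured collagen and basement membrane collagen that fibroblasts make constitutively. APC-intact cells held 40.2, 36.8 and 36.0 CPM without doxycycline, 34.5, 35.7 and 34.7 at 24 h and 31.9, 29.1 and 31.8 at 48 h. APC-deleted cells held 0.712, 0.664 and 0.732 CPM, then 0.552, 0.466 and 0.434 at 24 h and 0.344, 0.803 and 0.365 at 48 h. The lines were far apart at every time, and no APC-deleted library reached 1 CPM (30 to 66 counts). Mmp2 was 53.5-fold lower in untreated APC-deleted cells (−5.74 ± 0.145, log2) and 62.8-fold lower at 48 h (−5.97 ± 0.154), each within 1 run. None of its log2 changes with doxycycline passed with edgeR over all 18 libraries: −0.11 ± 0.104 and −0.28 ± 0.104 in APC-intact cells, and −0.54 ± 0.203 and −0.51 ± 0.211 in APC-deleted cells, at 24 and 48 h. With DESeq2 the last 3 of these passed, at −0.28, −0.54 and −0.51, and so they did without the 2 libraries that stood apart. The change at 48 h in APC-intact cells also passed with only the groups compared (−0.28). Without replicate 2 of APC-deleted cells at 48 h, a library that stood apart, the last change was −0.99 and passed. The calls for a fall of Mmp2 thus turn on the tool and on the libraries kept.

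Mmp9 encodes gelatinase B, an inducible gelatinase known from macrophages, neutrophils and tumour cells. The APC-intact values were 2.27, 2.49 and 1.90 CPM without doxycycline, 2.05, 1.79 and 1.84 at 24 h and 1.64, 1.01 and 1.15 at 48 h. The APC-deleted values were 4.52, 4.18 and 5.13 CPM, then 4.19, 3.87 and 3.90 at 24 h and 2.90, 2.76 and 3.09 at 48 h. The lines did not overlap at any time, and in both the 48 h libraries lay below the untreated ones whereas those at 24 h overlapped them. Mmp9 was higher in the APC-deleted line by 1.05 ± 0.147 on the log2 scale without doxycycline and by 1.21 ± 0.154 at 48 h, so the 2 gelatinase genes stood in opposite order between the lines. It fell by −0.81 ± 0.155 at 48 h in APC-intact cells and by −0.66 ± 0.145 at 48 h in APC-deleted cells, both across runs. The 24 h changes were −0.23 ± 0.151 and −0.21 ± 0.143 and did not pass.

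Mmp3 encodes stromelysin-1, which cuts proteoglycans and activates other proMMPs. It was scarce, with 30 to 179 counts per library. In APC-intact cells it was at 1.21, 1.09 and 0.920 CPM without doxycycline, 0.406, 0.639 and 0.632 at 24 h and 0.451, 0.521 and 0.393 at 48 h. In APC-deleted cells it was at 1.93, 1.45 and 1.64 CPM, then 0.943, 0.951 and 0.878 at 24 h and 0.595, 0.700 and 0.708 at 48 h. Treated libraries lay below untreated ones in both lines and at both times, with no overlap. The log2 change was −0.93 ± 0.200 at 24 h and −1.23 ± 0.202 at 48 h in the APC-intact line, and −0.86 ± 0.189 and −1.32 ± 0.195 in APC-deleted cells, all of which passed. The 24 h calls were lost with untreated APC-intact replicate 1 left out (−0.82), and likewise without APC-intact 24 h replicate 1 (−0.74), with only the APC-intact groups compared (−0.91), without untreated APC-deleted replicate 1 (−0.75) and without APC-deleted 24 h replicate 3 (−0.82). Mmp3 was higher in APC-deleted than in APC-intact cells by 0.64 ± 0.188 untreated and 0.55 ± 0.207 at 48 h. The first did not pass once APC-intact replicate 3 or APC-deleted replicate 1 was left out (0.54 each), and the second in 4 of the 6 fits that left out 1 library (0.46 to 0.55), without filter (0.56), with only the groups compared (0.54) and without the 2 libraries that stood apart (0.51).

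Mmp10 encodes stromelysin-2, a close paralogue of stromelysin-1 with a similar range of substrates. APC-intact libraries had 2.17, 2.80 and 2.20 CPM without doxycycline, 1.63, 1.84 and 1.63 at 24 h and 1.29, 0.948 and 1.20 at 48 h. APC-deleted libraries had 7.69, 8.49 and 10.3 CPM, then 6.01, 6.15 and 7.30 at 24 h and 5.56, 4.61 and 5.23 at 48 h. The lowest APC-deleted library, at 48 h, lay above the highest APC-intact library, without doxycycline. Mmp10 was 3.69-fold higher in untreated APC-deleted cells (1.88 ± 0.137, log2) and 4.49-fold higher at 48 h (2.17 ± 0.146). It fell at 48 h by −1.06 ± 0.149 in APC-intact and −0.78 ± 0.131 in APC-deleted cells. The 24 h fall in APC-deleted cells, −0.45 ± 0.129, was lost in 4 of the 6 fits that left out 1 library (without untreated replicate 2 or 3, −0.48 and −0.32, or 24 h replicate 1 or 2, −0.40 and −0.41). That in APC-intact cells, −0.49 ± 0.144, did not pass, but did with DESeq2, without filter and without 24 h replicate 2 (−0.55).

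Mmp13 encodes collagenase-3, which cuts fibrillar collagen. Its values were 3.69, 3.69 and 3.19 CPM in untreated APC-intact cells, 1.92, 2.05 and 2.07 at 24 h and 1.34, 1.06 and 1.81 at 48 h. They were 7.21, 7.44 and 7.55 CPM in untreated APC-deleted cells, 6.73, 6.39 and 6.55 at 24 h and 4.34, 3.34 and 4.05 at 48 h. At each time the lines were apart, but APC-deleted cells at 48 h overlapped untreated APC-intact cells. Mmp13 was higher in the APC-deleted line by 1.07 ± 0.131 on the log2 scale without doxycycline and 1.48 ± 0.142 at 48 h. In APC-intact cells it fell by −0.80 ± 0.138 at 24 h, within 1 run, and by −1.33 ± 0.142 at 48 h. In APC-deleted cells the 24 h change was −0.18 ± 0.128 and did not pass, and the 48 h change was −0.92 ± 0.131 and did. Mmp13 was the only member to pass between 24 and 48 h in APC-deleted cells, which share a run (−0.74 ± 0.131), though not in the fit of those groups alone.

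**Figure D2:**
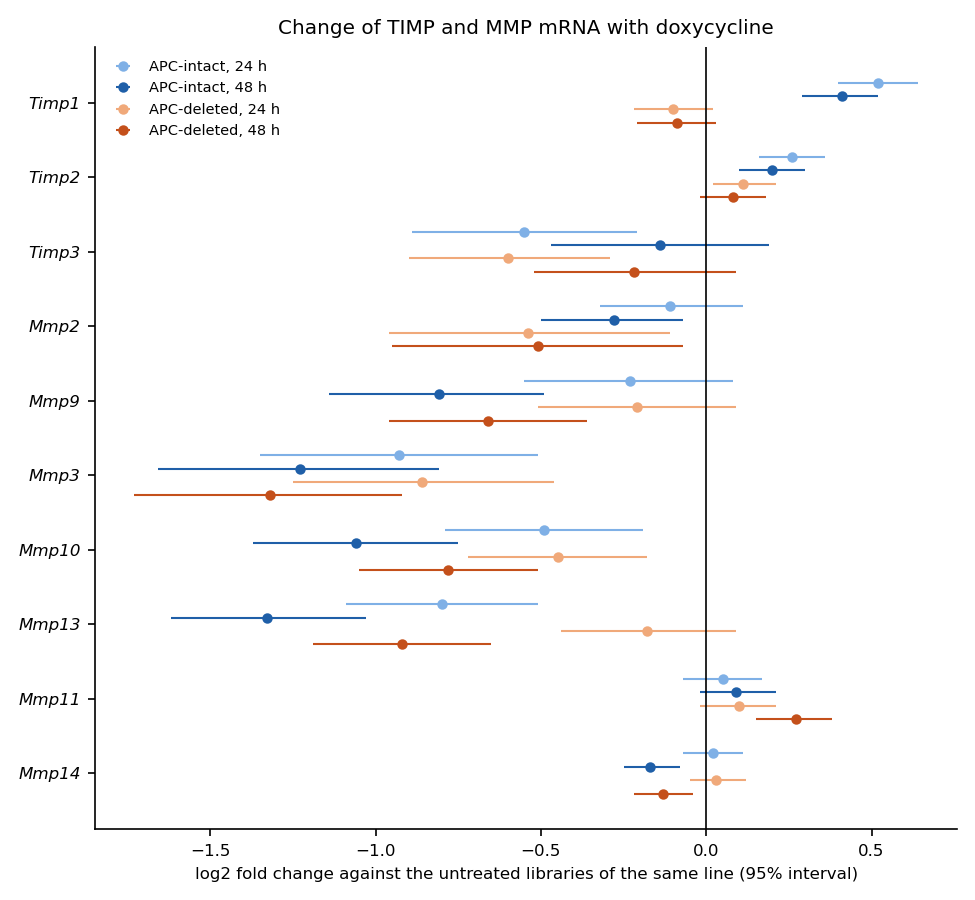
Log2 fold change of each member with doxycycline, against the untreated libraries of the same line (edgeR, 3 libraries a group). Points are estimates and bars are 95% intervals; the 48 h values of Mmp3, Mmp9, Mmp10 and Mmp13 lie below 0 in both lines, and the Timp1 values lie above 0 in APC-intact cells and near 0 in APC-deleted cells.

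Mmp11 encodes stromelysin-3, which furin activates inside the cell and which is known from tumour stroma. APC-intact cells had 134, 135 and 126 CPM without doxycycline, 142, 143 and 124 at 24 h and 143, 138 and 140 at 48 h. APC-deleted cells had 138, 148 and 147 CPM, then 157, 153 and 154 at 24 h and 171, 185 and 165 at 48 h. It was the only protease gene among the members that rose with doxycycline, by 0.27 ± 0.056 on the log2 scale at 48 h in APC-deleted cells, a call lost in the fit of only the groups compared. Its other changes with doxycycline, from 0.05 to 0.10, did not pass. The lines did not pass without doxycycline (0.13 ± 0.056; passed with only the groups compared and without the 2 libraries that stood apart) and passed at 48 h (0.31 ± 0.056).

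Mmp14 encodes the membrane-type protease that cuts collagen at the cell surface and activates proMMP2. The APC-intact libraries gave 491, 470 and 466 CPM without doxycycline, 492, 487 and 468 at 24 h and 430, 417 and 425 at 48 h. The APC-deleted libraries gave 542, 519 and 520 CPM, then 535, 545 and 537 at 24 h and 475, 490 and 480 at 48 h. The 48 h libraries lay below the untreated ones in both lines, by −0.17 ± 0.041 and −0.13 ± 0.041 on the log2 scale, and those at 24 h overlapped them (0.02 ± 0.041 and 0.03 ± 0.041). The 48 h call in APC-intact cells was lost without untreated replicate 1 (−0.14) or 48 h replicate 2 (−0.15) or 3 (−0.16) and without filter. That in APC-deleted cells was lost in 5 of the 6 fits that left out 1 library, with RLE factors, without filter and with only the groups compared. Between the lines Mmp14 differed by 0.15 ± 0.041 without doxycycline, lost without APC-intact replicate 3 (0.14), and by 0.18 ± 0.041 at 48 h. Neither Mmp14 nor Timp2 thus differed between the lines on anything near the scale of Mmp2.

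Between the untreated lines 6 members were higher and 2 lower in APC-deleted cells, where 13.4% of all genes tested were higher and 13.8% lower. The groups did not overlap for 9 of the 10, against 49.2% of all genes tested, and the median log2 difference was 0.40 against 0.00 over all genes tested. At 48 h 7 members were higher and 3 lower (17.8% and 16.8% of all genes), with no overlap for any of the 10 (none for 44.6% of all genes) and a median of 0.43. At 24 h in APC-intact cells 2 members were higher and 2 lower (1.39% and 4.25% of all genes), the median was −0.17 and 7 did not overlap (22.5% of all genes). At 48 h in APC-intact cells the counts were 2 higher and 5 lower (3.81% and 7.54%), the median was −0.23 and 9 did not overlap (43.1%). At 24 h in APC-deleted cells 0 were higher and 3 lower (2.08% and 3.77%; 1 higher and 4 lower at an unadjusted p under 0.05, 0 and 4 with DESeq2), with a median of −0.20 and 6 not overlapping (33.6%). The count of 3 became 1 or 2 in each fit that left out 1 of the 6 libraries. At 48 h in APC-deleted cells 1 was higher and 5 lower (4.52% and 6.49%), with a median of −0.36 and 6 not overlapping (25.6%). Between 48 and 24 h in that line 0 were higher and 1 lower (0.0733% and 0.446%), and for the difference of the 48 h changes 0 were higher and 1 lower (0.0200% and 0.00666%). As the members were chosen with these libraries known, nothing is read from these shares. The 24 and 48 h comparisons of a line share its untreated libraries, and 3 of these 4 comparisons (48 h in APC-intact cells, both times in APC-deleted cells) also set 1 run against the other, so run and treatment cannot be told apart there. Lines at 24 h, and 48 against 24 h in APC-intact cells, were not tested. Those groups lie in different runs too, as do those of the 3 comparisons just named, which were tested. Where library values of the lines are set side by side at 24 h, line and run cannot be told apart.

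Most fibroblast markers tested were higher in APC-deleted cells and most were lower with doxycycline. These were the directions of Timp3, Mmp3, Mmp9, Mmp10, Mmp13 and Mmp14 where these passed, and of Mmp11 between the lines at 48 h. They were not those of Timp1, Timp2 or Mmp11 with doxycycline, of Mmp2 and Timp1 between the lines, or of Timp2 between the lines at 48 h. Col1a2 and Dcn averaged 944 and 721 CPM in untreated APC-intact cells and 928 and 702 in untreated APC-deleted cells. The shares of all genes called in these comparisons stand in the paragraph above. Of 7 fibroblast markers tested, 5 were higher and 0 lower in untreated APC-deleted cells, and with doxycycline 4 and 6 were lower at 24 and 48 h in APC-intact cells and 5 and 4 in APC-deleted cells, with 0 higher. The summed level of the 8 markers ran from 3527 to 3722 CPM in untreated APC-intact cells, 2850 to 2957 at 24 h and 2728 to 2763 at 48 h. In APC-deleted cells it ran from 4210 to 4667 CPM, then 3488 to 3596 and 3426 to 3484. Summed haematopoietic markers ran from 15.6 to 17.9, 11.9 to 12.3 and 10.6 to 11.6 CPM in APC-intact cells and from 18.5 to 23.5, 15.5 to 16.5 and 13.4 to 19.0 in APC-deleted cells, and 1 of 3 tested was lower in each of the 4 treated groups. Most of this sum was Cd68, with means of 15.3 CPM in untreated APC-intact and 20.6 in untreated APC-deleted cells. Lyz2 went the other way (1.57 and 0.541 CPM). Between the untreated lines 1 of the 3 was higher and 1 lower in APC-deleted cells. Summed colon epithelial markers ran from 2.61 to 3.63, 1.78 to 2.73 and 2.54 to 3.22 CPM, and from 4.83 to 5.40, 3.54 to 3.89 and 3.47 to 4.24. Of 4 tested 1 was lower in each treated group. Krt8 was the largest part of this sum in the untreated lines (1.93 CPM in APC-intact and 3.83 in APC-deleted cells), and Krt19 went the other way (0.128 and 0.0250). Between the untreated lines 1 of the 4 was higher and 1 lower in APC-deleted cells. Summed endothelial markers ran from 5.13 to 5.97, 4.64 to 5.62 and 4.96 to 5.15 CPM, and from 2.72 to 3.74, 3.66 to 3.84 and 3.06 to 3.23, and 0 of 2 tested passed in a treated group. Between the lines 1 of the 2 was lower and 0 higher in APC-deleted cells, both untreated and at 48 h. Cdh5 averaged 4.78 CPM in untreated APC-intact and 2.42 in untreated APC-deleted cells, and Pecam1 0.720 and 0.758. The part of these shifts in the MMP and TIMP values was not tested.

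Mmp13, Mmp3 and Mmp10 belong to a cluster of 10 MMP genes within 427072 bases of chromosome 9. Apart from these 3 only Mmp1b, a collagenase-like gene, passed the filter on low counts. It had 2 to 21 counts per library and passed only at 48 h in APC-intact cells, where it was lower (−2.26 ± 0.637, edgeR adjusted p 0.0268). The others, Mmp12, Mmp1a, Mmp8, Mmp27, Mmp20 and Mmp7, had at most 6 counts in any library, and Mmp20 and Mmp7 had 0. The levels per kilobase of exon of the 3 members were higher in untreated APC-deleted than in APC-intact cells, 5.17 against 1.40 CPM for Mmp10, 2.78 against 1.32 for Mmp13 and 0.937 against 0.601 for Mmp3. The mean of Mmp1b was 0.0547 CPM per kilobase against 0.123, a difference that did not pass (−1.15 ± 0.563, log2, edgeR adjusted p 0.145). The 3 members, which are not neighbours of one another, thus had the highest levels among the 10 genes in the untreated lines, though Mmp3 itself was scarce. They were chosen with these counts known, so nothing is read from this.

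**Figure D3:**
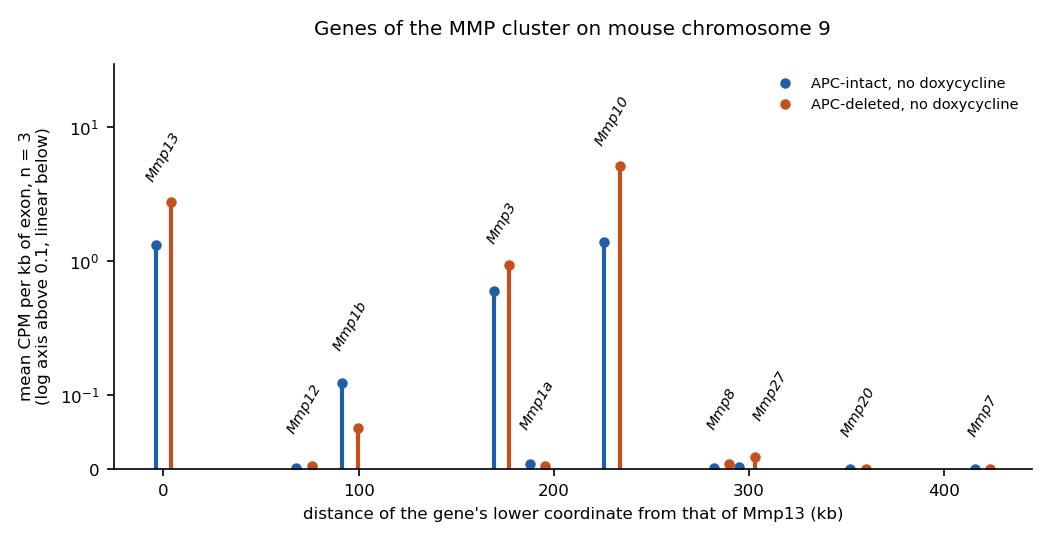
Mean level per kilobase of exon (n = 3, no error bars; axis logarithmic above 0.1 and linear below) of the 10 MMP genes of the chromosome 9 cluster in the untreated lines, placed by distance from Mmp13. Only Mmp13, Mmp3 and Mmp10 exceed 0.5 CPM per kilobase, and all 3 are higher in APC-deleted cells.

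Outside the members the files hold 17 more MMP and TIMP genes, of which 13 did not pass the filter and had at most 7 counts in any library. Timp4, the fourth TIMP gene, reached 1 count. Of the 4 tested, Mmp28, which encodes epilysin, rose in APC-intact cells by 0.36 ± 0.078 at 24 h (edgeR adjusted p 0.00793) and 0.47 ± 0.078 at 48 h (adjusted p 0.000506), and in APC-deleted cells by 0.38 ± 0.077 at 48 h (adjusted p 0.00303). The 24 h rise did not pass once replicate 1 of the untreated group was left out (0.32), and neither it nor the rise in APC-deleted cells passed with only the groups compared. Mmp28 therefore moved against Mmp3, Mmp9, Mmp10 and Mmp13 at 48 h. Its means were 4.27 ± 0.290, 5.48 ± 0.071 and 5.90 ± 0.457 CPM (SD, n = 3) in APC-intact cells and 5.33 ± 0.130, 6.32 ± 0.084 and 6.95 ± 0.209 in APC-deleted cells. Mmp19, a protease of basement membrane proteins, did not pass in any of the 8 comparisons (−0.13 to 0.14).

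Of 20 genes of plasminogen activation and of MMP activation or inhibition, 13 were tested, and with doxycycline 4, 4, 2 and 6 of them were lower (APC-intact at 24 and 48 h, then APC-deleted at 24 and 48 h) and 0, 0, 1 and 0 higher. Of all genes tested 4.25%, 7.54%, 3.77% and 6.49% were lower and 1.39%, 3.81%, 2.08% and 4.52% higher, in that order. The median log2 changes of the 13 were 0.03, −0.10, 0.01 and −0.01, against 0.00 over all genes tested. Thbs1, thrombospondin-1, a matrix protein that binds MMP2 and MMP9, had 846, 740 and 854 CPM in untreated APC-intact cells, 565, 478 and 615 at 24 h and 607, 578 and 602 at 48 h. In APC-deleted cells it had 686, 684 and 679 CPM, then 483, 504 and 525 at 24 h and 502, 480 and 528 at 48 h. Treated and untreated libraries did not overlap in either line. On the log2 scale Thbs1 fell in each treated group, by −0.56 ± 0.073, −0.45 ± 0.073, −0.44 ± 0.073 and −0.44 ± 0.073 in the same order (edgeR adjusted p 0.000103, 0.000394, 0.00101 and 0.000572). Plau, the urokinase that makes plasmin, fell by −0.26 ± 0.044 and −0.24 ± 0.044 in APC-intact cells (adjusted p 0.00108 and 0.00117), and its 48 h fall in APC-deleted cells was −0.21 ± 0.044 (adjusted p 0.00403). The Plau calls at 24 h in APC-intact and 48 h in APC-deleted cells were lost in the fit of only the groups compared. Between the untreated lines 1 of the 13 was higher and 4 lower in APC-deleted cells (13.4% and 13.8% of all genes tested). Reck, a membrane-anchored inhibitor of MMPs, was higher, by 0.56 ± 0.070 without doxycycline and 0.57 ± 0.070 at 48 h (adjusted p 3.7e-06 and 2.84e-06). Plat, the tissue plasminogen activator, was lower, by −0.76 ± 0.071 and −0.67 ± 0.072 (adjusted p 8.05e-08 and 4.61e-07).

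**Figure D4:**
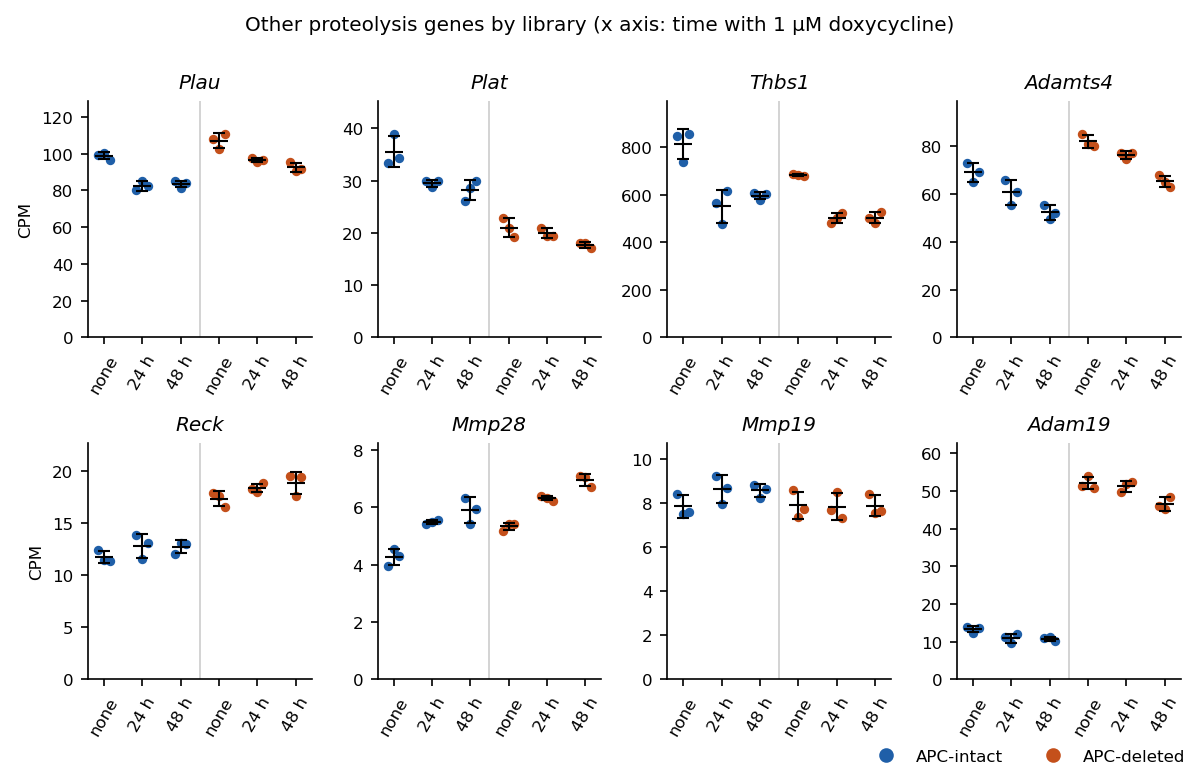
CPM in each library of 8 other protease, inhibitor and matrix genes, by line and time with 1 µM doxycycline. Coloured points are libraries and black marks are the mean and SD of 3. Thbs1 is lower in each treated group than in the untreated libraries of its line, and Adam19 lies between 45.1 and 53.9 CPM in APC-deleted cells and between 9.61 and 13.9 CPM in APC-intact cells.

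Of 27 ADAM and ADAMTS genes, relatives of the MMPs that shed membrane proteins or cut proteoglycans and several of which TIMP3 inhibits, 16 were tested. Between the untreated lines 4 were higher and 3 lower in APC-deleted cells (median 0.06), and at 48 h 7 were higher and 2 lower (median 0.19). Of all genes tested 13.4% were higher and 13.8% lower between the untreated lines, and 17.8% and 16.8% at 48 h. Adam19, a sheddase of neuregulins, was higher by 1.97 ± 0.069 untreated (edgeR adjusted p 2.87e-14), and the 48 h difference was 2.11 ± 0.070 (adjusted p 1.19e-14). Adamts9, an aggrecanase and versicanase, had 0 counts in the 3 untreated APC-deleted libraries against 1213 in the APC-intact ones, which is at least 399-fold lower against a floor of 3 counts over the group. At 48 h the counts were 0 and 1173, at least 362-fold lower. Adamts9 was thus not detected in these APC-deleted libraries, whereas Mmp2, also far lower there, still had 30 to 66 counts in each APC-deleted library. With doxycycline the 16 genes gave 0 higher and 3 lower at 24 h and 1 and 4 at 48 h in APC-intact cells, and 2 and 2 at 24 h and 0 and 1 at 48 h in APC-deleted cells. The shares of all genes tested, in the same order, were 1.39% and 4.25%, 3.81% and 7.54%, 2.08% and 3.77%, and 4.52% and 6.49%. Adamts4, an aggrecanase, fell at 48 h in both lines, by −0.40 ± 0.062 (adjusted p 0.000255) and −0.33 ± 0.062 (adjusted p 0.00185). Adamts1, a versican-cutting protease, fell at 24 h in both, by −0.29 ± 0.058 (adjusted p 0.00401) and −0.32 ± 0.057 (adjusted p 0.00176), the first of which was lost with only the groups compared. In APC-deleted cells Adam8, a sheddase known from leukocytes, averaged 17.7 CPM untreated, 23.8 at 24 h and 18.1 at 48 h. It rose at 24 h by 0.43 ± 0.081 (adjusted p 0.00313), was lower at 48 than at 24 h by −0.40 ± 0.081 (adjusted p 0.0221), and did not pass at 48 h against untreated cells (0.03 ± 0.082, adjusted p 0.862). Adamts7 averaged 22.3, 26.5 and 20.03 CPM and was lower at 48 than at 24 h by −0.41 ± 0.076 (adjusted p 0.0100), while its 24 and 48 h changes against untreated cells, 0.25 ± 0.075 and −0.16 ± 0.076, did not pass (adjusted p 0.0569 and 0.199). The Adam8 call between 24 and 48 h was lost in 4 and the Adamts7 call in 2 of the 6 fits that left out 1 library (−0.35 to −0.41, and −0.38 and −0.35).

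Transcription factors known to act on MMP promoters, AP-1, ETS, RUNX, NF-κB, STAT3 and TCF/LEF members, were all 19 tested. Between the untreated lines 7 were higher and 5 lower in APC-deleted cells (13.4% and 13.8% of all genes tested), with a median of −0.01. Within AP-1 the directions were mixed: Fosb was higher by 0.56 ± 0.078 (edgeR adjusted p 1.59e-05), while Fosl1 was lower by −0.52 ± 0.080 (adjusted p 5.62e-05) and Fosl2 by −0.33 ± 0.045 (adjusted p 1.35e-05). At 48 h Fosb (0.63 ± 0.078, adjusted p 3.03e-06) and Fosl1 (−0.53 ± 0.080, adjusted p 3.2e-05) kept these directions and Jund was lower by −0.53 ± 0.108 (adjusted p 0.000871). Etv4, the ETS factor PEA3, was higher by 0.33 ± 0.061 without doxycycline (adjusted p 0.00041). Lef1, a partner of beta-catenin, was higher by 0.53 ± 0.060 at 48 h (adjusted p 8.49e-07). With doxycycline the 19 factors gave 0 higher and 0 lower at 24 h in APC-intact cells, 1 and 3 at 48 h, 2 and 0 at 24 h in APC-deleted cells and 1 and 2 at 48 h. The shares of all genes tested, in the same order, were 1.39% and 4.25%, 3.81% and 7.54%, 2.08% and 3.77%, and 4.52% and 6.49%. Runx2, a known activator of Mmp13 in bone, rose at 48 h by 0.42 ± 0.089 in APC-intact cells (adjusted p 0.00459) and 0.39 ± 0.089 in APC-deleted cells (adjusted p 0.00787), while Mmp13 fell. The second call was lost without untreated APC-deleted replicate 1 (0.34) and in the fit of those 2 groups alone. In the 4 lists together 0 of 52 genes passed for the difference of the 48 h changes with edgeR (4 higher and 1 lower at an unadjusted p under 0.05, 0 with DESeq2), and 0 of 13, 0 of 16 and 0 of 19 list genes passed in a single list. Of all genes tested 0.0200% were higher and 0.00666% lower for this difference.

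The 3 members of widest range between group means were Mmp2 (6.27 on the log2 scale), Mmp10 (2.92) and Mmp13 (2.41). Likeness of pattern was measured as Pearson's r of log2 CPM over the 18 libraries, a description with no test, since the libraries fall into 2 clusters by line and share their depth across genes. The genes most like Mmp2 were Slco2a1, a prostaglandin transporter (r 0.996), Epb4.1l3, a membrane skeleton protein (0.995), and Il2rg, the common cytokine receptor chain (0.995). Slco2a1 averaged 16.3 CPM in untreated APC-intact and 0.666 in untreated APC-deleted cells. Those most like Mmp10 were Hdac9, a histone deacetylase (0.983), Sqrdl, a sulfide oxidase (0.982), and Serpinf1, the secreted serpin PEDF (0.982). Hdac9 averaged 6.34 CPM in untreated APC-intact cells, 4.41 after 24 h and 3.33 after 48 h, and 18.4, 16.8 and 14.3 CPM in APC-deleted cells. Those most like Mmp13 were the growth factor gene Fgf7 (0.981), the matrix gene Matn2 (0.977) and the chemokine gene Ppbp (0.977). Ppbp averaged 2.10, 0.954 and 0.707 CPM in APC-intact and 5.81, 3.53 and 2.23 CPM in APC-deleted cells, in the same order.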

How the data were processed

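The authors deposited, per the file headers, whole-number read counts per Ensembl gene for each of 18 libraries; STAR, HTSeq and mm10 are named in the submitters' processing notes, and for versions, strand setting and annotation release nothing is given in the sources used here. The RPKM column beside the counts was left aside. Rows naming no gene took 22.9 to 25.5% of each library and were left out. Differences were tested on the counts by edgeR 4.0.16 under R 4.3.3 (TMM factors, filterByExpr, 1 coefficient per group over 18 libraries, robust glmQLFit, glmQLFTest), with p-values adjusted by Benjamini and Hochberg over 15006 genes and a threshold of 0.05. SE is the size of the log2 fold change divided by the square root of F. CPM used gene counts and TMM factors, and the component analysis log2 CPM with a prior count of 2. edgeR's biological coefficient of variation was 8.33%, and replicates differed by more than sampling noise (chi-square per degree of freedom 7.9 to 81.1).

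The members and lists were chosen with earlier results of these data known. All 10 members are named. From the 4 lists, taken by function, the rule admitted up to 4 genes per comparison and direction of smallest adjusted p with at least 1 CPM in the higher group. It also admitted the 3 tested genes, members left out, most like each of the 3 members of widest range. Mmp1b, Mmp19, Mx2, Cxcl1 and Bcl2l15 were named after their values were seen. Some genes that the counts include are not reported here. Promoters came from RefSeq (8 of 10 members matched). The fit was tested on simulated data. Tables were made in Python 3.11.15 (pandas 2.3.3, numpy 2.4.6) and figures in matplotlib 3.10.9. The alternatives were DESeq2 1.42.0, DESeq-style (RLE) factors, no filter, a replicate block, only the groups compared and leaving out each library.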

Additional observations from a re-analysis of the deposited data

Results flagged for a closer look

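The log2 change of Timp1 after 48 h of doxycycline differed between the lines, by −0.49 (APC-deleted minus APC-intact), in edgeR's test of the difference itself over 4 groups of 3 libraries. Timp1 rose by 0.41 in APC-intact cells and changed by −0.09 in APC-deleted cells, and all 3 treated APC-intact libraries at 48 h lay above the 3 untreated ones. In 11 of the 12 fits that left out 1 of these libraries the adjusted p was no longer under 0.05; the exception left out replicate 2 of APC-deleted cells at 48 h. Since Timp1 was among genes chosen with these counts known, the value is a description.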

How the results depend on the processing

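Of 1548 log2 fold changes of members and named list genes under the alternatives, 1418 kept their direction and side of the threshold, 93 lost their call, 19 gained one and 18 changed sign; the cause was not tested. The count of members past the threshold became 1 to 2 without 1 library at 24 h in APC-deleted cells (3 with all). Between 48 and 24 h it became 2 with DESeq2 and without both libraries that stood apart (an alternative chosen after seeing the data), 0 with only the groups compared and 1 to 2 without 1 library. For the difference of the 48 h changes it became 0 with only the groups compared and 0 to 1 without 1 library. List genes past the threshold became 2 at 24 h (8 in the report) and 26 at 48 h (15) in APC-intact cells with only the groups compared, and 5 to 10 at 24 h without 1 library, the lowest without untreated replicate 1. In APC-deleted cells they became 14 with DESeq2, 19 with only the groups compared, 15 without both libraries and 5 to 9 without 1 library at 24 h (9), lowest without untreated or 24 h replicate 1. They became 3 with only the groups compared, 18 without both libraries and 7 to 17 without 1 library at 48 h (11), from 7 without untreated replicate 1 to 17 without 48 h replicate 2. Between 48 and 24 h they became 0 with only the groups compared, 4 without both libraries and 0 to 4 without 1 library (2).

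The sign turned only in values that had not passed. Timp2 between the untreated lines was 0.01 without filter, 0.00 without both libraries and −0.02 to 0.02 without 1 library. Timp1 between 48 and 24 h was 0.00 without filter, −0.07 without both libraries and −0.06 to 0.04 without 1 library, and Mmp2 was −0.46 without both libraries and −0.45 to 0.22 without 1 library, lowest without 48 h replicate 2. Without 1 library, Timp3 at 48 h in APC-intact cells ran from −0.24 to 0.02, and the differences of the 48 h changes from −0.23 to 0.02 for Timp3 and from −0.20 to 0.02 for Mmp3. Calls over all genes were 846 at 24 h in APC-intact cells, and 258 with only the groups compared. At 48 h they were 1703, and 4367 with only the groups compared and 2984 without both libraries. In APC-deleted cells they were 878 at 24 h, and 1388 with DESeq2, 2473 with only the groups compared and 1564 without both libraries; at 48 h they were 1653, and 433 with only the groups compared and 3009 without both libraries. Between 48 and 24 h they were 78 (14.1% higher), and 191 with DESeq2 (31.9% higher), 22 with only the groups compared and 221 without both libraries. For the difference they were 4, and 57 with DESeq2, 14 without filter, 0 with only the groups compared and 2 without both libraries. Leaving out 1 library also moved these counts. At 24 h in APC-intact cells they became 364, 417 and 441 (without untreated replicate 1 or 2, or 24 h replicate 1), and rose to 1259 without 24 h replicate 2. At 48 h in APC-intact cells they became 822, 901, 853, 1124 and 848 (without untreated replicate 1 or 2, or 48 h replicate 1, 2 or 3). In APC-deleted cells they fell to between 428 and 533 at 24 h without any 1 of the 6 libraries, and at 48 h became 882 and 1032 without untreated replicate 1 or 2 and 2816 without 48 h replicate 2. Between 48 and 24 h they became 47 without 24 h replicate 2 and 193 without 48 h replicate 2, and for the difference 0 to 3. The shares of all genes in the report move with these counts.

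Same-numbered replicates correlated at −0.0883 to 0.116 after removal of group means, so the numbers were not taken to pair the samples. With the replicate block the only member to lose its call was Mmp3 between the lines at 48 h (0.55), and the difference of Timp1 still passed. Genes with few counts, Mmp3 and, in APC-deleted cells, Mmp2, had the widest intervals among the members.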
